A study of Mus musculus with 18 samples.

Results

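The genes followed here were *Cd74*, the invariant chain of MHC class II, *Ctss*, which encodes the protease cathepsin S, *Ciita*, the class II transactivator, the class II chain genes *H2-Aa*, *H2-Ab1* and *H2-Eb1*, and *H2-DMa*, a chain of the peptide-exchange protein H2-DM. These 7 genes, of 27179 counted, were picked because *Cd74* was lower in thymocytes of both mutant strains than in WT thymocytes, and they were found in the count files by the Entrez Gene ID of each symbol. Of the 7 genes, 6 passed the filter on low values (at least 0.5 CPM, that is, reads of the gene per 1000000 reads counted on genes, in at least 3 of the 18 samples) and *H2-Aa* did not. RNA was sequenced from CD69+ thymocytes, that is, T-cell precursors signalled through their antigen receptor, sorted into an earlier MHC I low and a later MHC I high fraction, hereafter the low and the high fraction. Both fractions came from each of 9 mice. The WT mice were C57BL/6. The 3 Hoil ΔCd4 mice carried floxed alleles of *Rbck1*, which encodes HOIL-1, and a *Cd4*-Cre transgene that deletes them in the T lineage. The 3 Sharpin cpdm mice lacked SHARPIN in all cells, were still largely of the C57BL/Ka background and were taken before extensive skin disease. HOIL-1 and SHARPIN are components of the linear ubiquitin chain assembly complex, which acts in NF-κB signalling. The age of the mice was not given in the sources used here. The sort gated out dead cells and any cell with class II (MHC II) or B220, a B-cell marker, on its surface. It also removed cells with Gr1 or Mac-1, found on myeloid cells, with NK1.1, with CD25 or CD44, or with the δ chain of the T-cell receptor.

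Class II molecules present peptides from the endosome to CD4+ T cells. The invariant chain, encoded by *Cd74*, binds newly made class II α and β chains, blocks their groove and brings them to the endosome. There cathepsin S cuts it down to a short peptide, which H2-DM exchanges for others. CIITA turns on the genes of the class II chains, of H2-DM and of the invariant chain, and acts through factors bound at the X and Y boxes of their promoters. In the thymus class II is known from epithelial cells, dendritic cells and B cells, whereas mouse T cells make little or none. CD74 also reaches the cell surface, where it binds the cytokine MIF.

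The promoters of a pair of class II chain genes and of *Ctss* are shown because they hold the letters by which CIITA-bound and interferon-regulated promoters are recognized. They are RefSeq sequences (GRCm38.p6) from 250 bases before to 50 bases after the start, read 5′ to 3′ on the strand of the gene. Capitals mark GCAAC (core of the X box), CTGATTGG (Y box, which contains its core ATTGG) and the core of the interferon-stimulated response element (GAAA, 2 bases of any kind, GAAA), searched on both strands.
H2-Aa, chr17:34287774-34288073, minus strand: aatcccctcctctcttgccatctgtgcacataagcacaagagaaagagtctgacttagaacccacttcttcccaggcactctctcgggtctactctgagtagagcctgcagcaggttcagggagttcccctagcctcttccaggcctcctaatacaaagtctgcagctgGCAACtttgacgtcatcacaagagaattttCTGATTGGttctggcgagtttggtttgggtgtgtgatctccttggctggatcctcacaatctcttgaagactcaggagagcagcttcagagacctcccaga
H2-Eb1, chr17:34305617-34305916, plus strand: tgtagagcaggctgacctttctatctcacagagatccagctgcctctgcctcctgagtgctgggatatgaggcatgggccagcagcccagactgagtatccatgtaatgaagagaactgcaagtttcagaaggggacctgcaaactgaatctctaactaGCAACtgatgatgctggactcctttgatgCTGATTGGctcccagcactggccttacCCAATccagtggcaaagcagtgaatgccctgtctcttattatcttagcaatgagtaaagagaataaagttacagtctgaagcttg
Ctss, chr3:95526536-95526835, plus strand: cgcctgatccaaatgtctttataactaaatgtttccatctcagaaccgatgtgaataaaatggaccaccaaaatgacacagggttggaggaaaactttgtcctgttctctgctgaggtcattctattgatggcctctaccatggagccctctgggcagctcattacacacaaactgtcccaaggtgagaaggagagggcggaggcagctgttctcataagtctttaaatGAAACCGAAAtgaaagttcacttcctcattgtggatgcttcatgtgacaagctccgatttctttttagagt

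In the *H2-Aa* promoter the X box core began 81 bases and the Y box 51 bases before the start. In the *H2-Eb1* promoter the X box core began 91 bases and the Y box 62 bases before the start, and CCAAT, the Y box core on the other strand, lay 35 bases before it. Of all 32851 RefSeq windows of the same length, 35.2% held GCAAC, 37.4% held ATTGG and 4.10% held CTGATTGG. In 1.60% GCAAC was followed by ATTGG after 5 to 40 bases, with both on the gene's strand or both on the other strand. The *Ctss* window held the interferon-response core 21 bases before the start, as did 3.44% of all windows. These matches describe letters and not bound sites. Both RefSeq windows of *H2-DMa* were searched and lacked GCAAC followed by ATTGG. The one held GCAAC on the other strand 7 bases before the start, and the other held ATTGG 198 bases before it. The promoters of *Cd74*, *Ciita* and *H2-Ab1* were not used here.

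The samples held 10577966 to 16266128 reads counted on genes. *Rbck1* was at 0.271–0.7785 CPM in low-fraction and at 3.72–8.94 CPM in high-fraction samples of Hoil ΔCd4 mice. It was at 217.2–267.6 CPM in the 6 WT samples. The Hoil ΔCd4 fractions thus differed in remaining *Rbck1* RNA, and what this adds to their contrasts was not tested. *Sharpin* RNA was at 66.4–77.9 CPM in Sharpin cpdm and at 85.9–97.3 CPM in WT samples, which does not bear on the protein. By *Xist*, the RNA of the inactive X chromosome, all 3 WT mice were female, whereas 2 of 3 mice of each mutant strain were male, so that sex differs between WT and mutant groups. The high-fraction sample of Hoil ΔCd4 mouse 2 held 64.6 CPM of *Xist* although the low-fraction sample of this male mouse held 0.606. For the 6 tested genes, values without this mouse stand beside the results of the strain, and named genes of the lists are given without it where a call ended. Nothing in the sources says whether mice were littermates.

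Per length, the genes fell into an abundant and a scarce set. Levels between genes are given as CPM per kilobase of counted transcript (RPKM). In WT low-fraction cells *H2-DMa* was at 13.97 ± 2.19 RPKM, *Cd74* at 12.11 ± 0.890 and *Ctss* at 12.1 ± 0.879 (mean ± SD, n = 3), levels that overlapped between the 3 genes. In WT high-fraction cells *Ctss* was highest at 81.5 ± 3.20 RPKM, and *H2-DMa* (23.8 ± 3.81) and *Cd74* (23.6 ± 4.35) followed, again without differing beyond their spread. The class II chains were far below them, with *H2-Ab1* at 0.289–1.34 RPKM, *H2-Eb1* at 0.104–0.810 and *H2-Aa* at 0–0.725 over all 18 samples. *Ciita* lay among these at 0.285 ± 0.0830 RPKM in WT low-fraction and 0.429 ± 0.102 in WT high-fraction cells. *Cd74* thus exceeded the summed RPKM of the 3 class II chains in every sample, by 2.86-fold to 22.9-fold. The ratio was 6.30–8.90 in WT low-fraction, 2.86–6.36 in Hoil ΔCd4 low-fraction and 3.25–6.91 in Sharpin cpdm low-fraction samples. In high-fraction samples WT mice had 21.3–22.9, Hoil ΔCd4 mice 9.06–16.9 and Sharpin cpdm mice 11.4–13.5. The chain sums rest on only 10–43 reads per sample, so the ratios are coarse. Their numerator is *Cd74*, whose lower level in both mutants chose the genes, so the differences between genotypes are not independent of that choice.

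**Figure D1:**
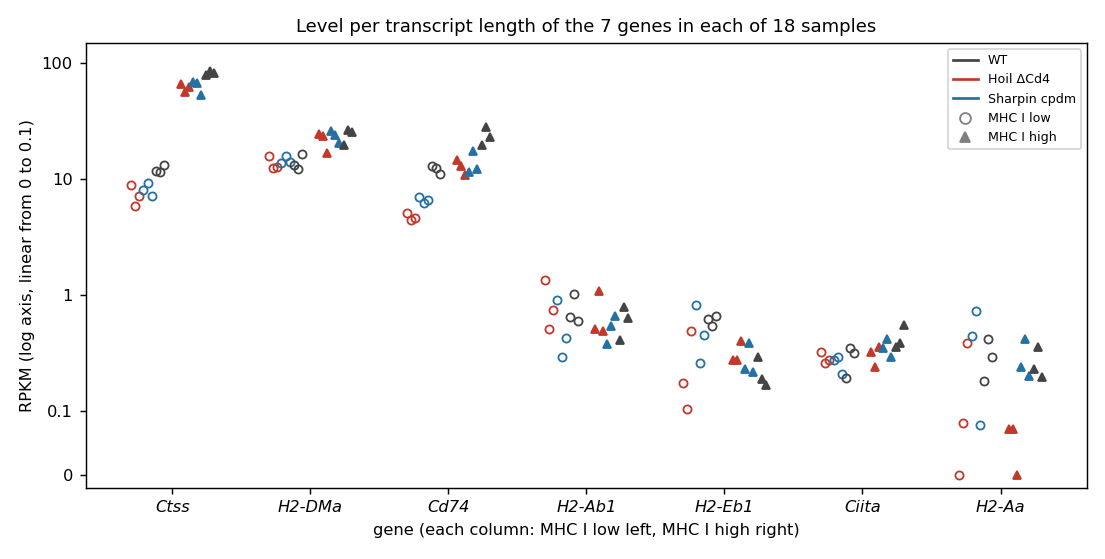
RPKM (log axis, linear below 0.1) of the 7 genes in each of the 18 samples, the low fraction as open circles and the high fraction as filled triangles, coloured by genotype. *Ctss*, *H2-DMa* and *Cd74* lie above 4 RPKM in every sample and the other 4 genes below 1.35 RPKM.

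The strains differed from WT in *Cd74* and, less, in *Ctss*. *Cd74* (chromosome 18, 60803849–60812652, mm10) was at 18.1, 17.6 and 15.7 CPM in the low-fraction samples of WT mice 1 to 3. It was at 7.12, 6.23 and 6.51 CPM in those of Hoil ΔCd4 mice and at 9.93, 8.69 and 9.29 CPM in those of Sharpin cpdm mice. All 6 mutant samples were below all 3 WT samples. The high-fraction samples of WT mice held 27.9, 40.03 and 32.3 CPM, those of Hoil ΔCd4 mice 20.4, 18.3 and 15.2 CPM and those of Sharpin cpdm mice 16.1, 24.5 and 17.3 CPM. Again no mutant sample reached the lowest WT sample. In bulk RNA a smaller number of cells that express a gene and less RNA of it per cell cannot be told apart.

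The mean CPM of *Cd74* in low-fraction cells came to 38.6% of WT for Hoil ΔCd4 mice and to 54.3% for Sharpin cpdm mice. The log2 fold change was −1.36 (SE 0.162, 95% interval −1.69 to −1.03) in the first and −0.89 (SE 0.147, −1.19 to −0.58) in the second. In high-fraction cells the mean was 53.7% of WT in Hoil ΔCd4 mice (log2 fold change −0.88, SE 0.145) and 57.8% in Sharpin cpdm mice (−0.69, SE 0.133). These values chose the genes, and they are given without a test.

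*Ctss* (chromosome 3, 95526786–95556405) was at 15.9, 15.5 and 17.8 CPM in WT low-fraction samples. It was at 11.9, 7.87 and 9.57 CPM in Hoil ΔCd4 and at 10.9, 12.4 and 9.62 CPM in Sharpin cpdm low-fraction samples. The high-fraction samples held 106.2, 114.9 and 110.3 CPM for WT, 88.7, 76.7 and 83.8 CPM for Hoil ΔCd4 and 92.3, 90.9 and 72.4 CPM for Sharpin cpdm mice. The mutant samples lay below every WT sample of their fraction here too. The means in low-fraction cells were 59.7% of WT in Hoil ΔCd4 (log2 fold change −0.74, SE 0.112) and 67.0% in Sharpin cpdm mice (−0.54, SE 0.103). In high-fraction cells they were 75.2% (−0.41, SE 0.101) and 77.1% (−0.35, SE 0.0927).

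**Figure D2:**
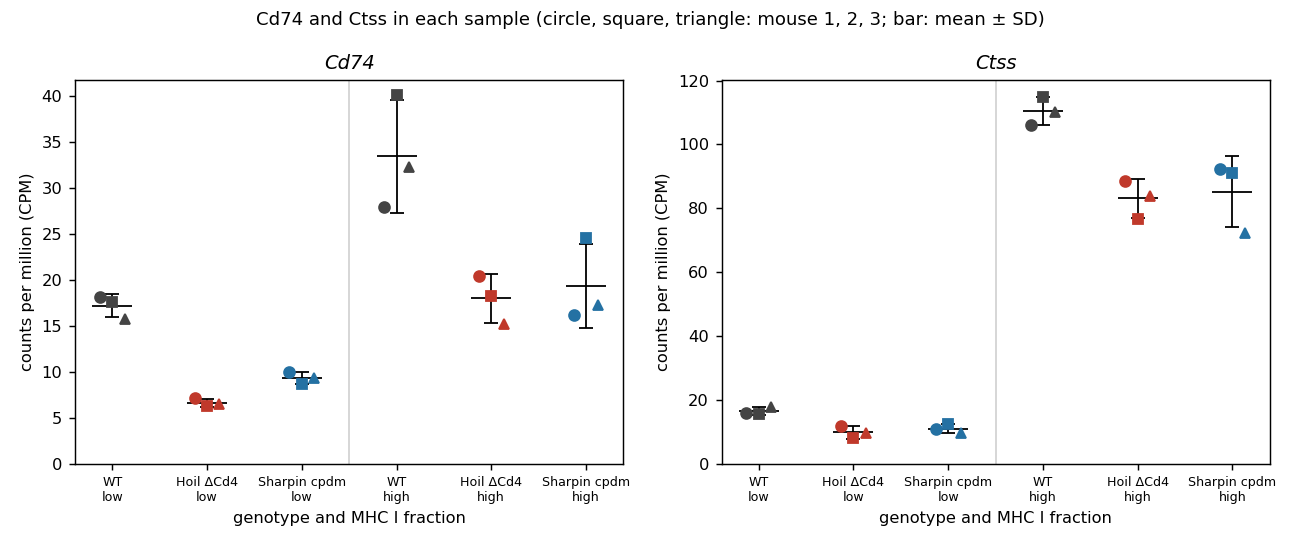
CPM of *Cd74* and *Ctss* in each sample by genotype and MHC I fraction, with points for mice 1 to 3 and bars for mean ± SD. In each fraction the mutant points lie below the 3 WT points, and *Ctss* rises from 7.87–17.8 CPM in the low to 72.4–114.9 CPM in the high fraction.

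Among the other genes *H2-DMa* was close to WT in both mutants. The scarce genes had means below WT in some mutant groups and above WT in others, on few reads. *H2-DMa* (chromosome 17, 34119693–34139101) had low-fraction means of 10.9 ± 1.71 CPM for WT, 10.7 ± 1.41 CPM for Hoil ΔCd4 and 11.3 ± 0.797 CPM for Sharpin cpdm mice. Its high-fraction means were 18.6 ± 2.98, 16.8 ± 3.25 and 18.4 ± 2.17 CPM, and mutant and WT samples overlapped in both fractions. The 4 log2 fold changes lay between −0.18 and 0.07, and those of Hoil ΔCd4 mice were 0.016 and −0.24 without mouse 2. *Ciita* (chromosome 16, 10480014–10531064) had log2 fold changes of 0.06 and −0.62 in low-fraction and high-fraction cells of Hoil ΔCd4 mice, and of −0.05 and −0.36 in those of Sharpin cpdm mice. In Hoil ΔCd4 high-fraction samples it came to 71.1% of WT, and the highest of them (2.016 CPM) lay just below the lowest WT sample (2.021 CPM). Without WT mouse 3, whose high-fraction sample had the highest *Ciita* level of all, the estimate of −0.62 moved to −0.31 and that of −0.36 to −0.05. Without Hoil ΔCd4 mouse 2 those of this strain were 0.12 and −0.45. *H2-Ab1* (34263227–34269418) lay between −0.57 and 0.19 and *H2-Eb1* (34305867–34316674) between −1.25 and 0.60 on the log2 scale, with SEs of 0.392–0.508. *H2-Eb1* was at 0.290, 0.173 and 0.814 CPM in Hoil ΔCd4 low-fraction samples (2–12 reads), below the lowest WT sample at 0.895 CPM, and its mean came to 42.4% of WT (log2 fold change −1.25, and −0.91 without Hoil ΔCd4 mouse 2). *H2-Aa* had 0–1 reads in Hoil ΔCd4 and 3–6 reads in WT high-fraction samples, likewise without overlap. The other groups of *Ciita*, *H2-Ab1*, *H2-Eb1* and *H2-Aa* overlapped with WT. The genes were chosen on these contrasts, and the comparisons of both mutants share the WT samples.

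**Figure D3:**
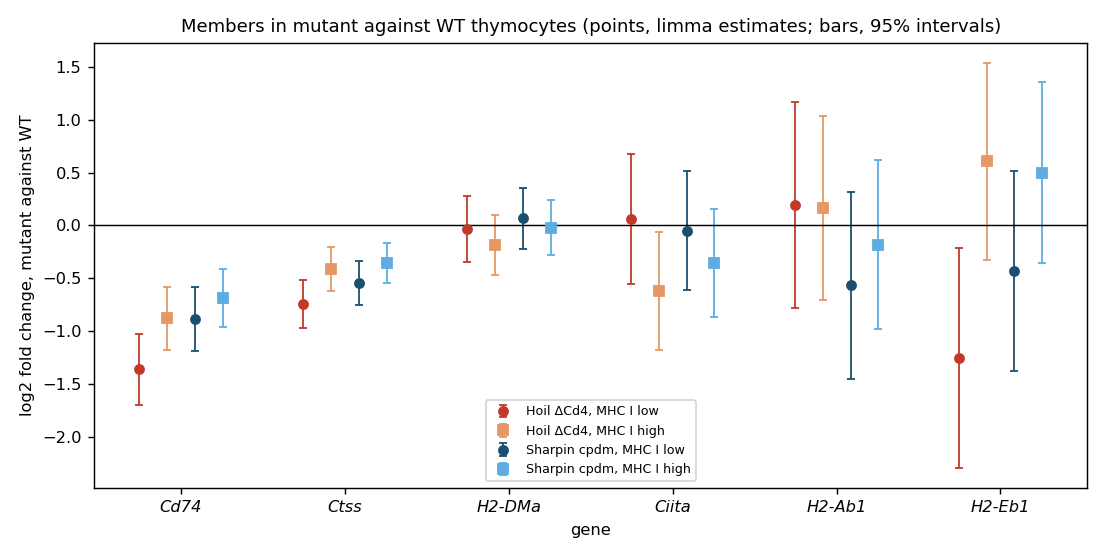
Log2 fold change of the 6 tested genes in each mutant against WT, by MHC I fraction, with points for limma estimates and bars for 95% intervals. Estimates lie at −1.36 to −0.69 for *Cd74*, −0.74 to −0.35 for *Ctss* and −0.18 to 0.07 for *H2-DMa*. The genes were chosen on these contrasts, so the intervals show spread and are not a test.

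Sex moved with genotype. In the female mutant mice *Cd74* was at 6.51 (Hoil ΔCd4 mouse 3) and 8.69 CPM (Sharpin cpdm mouse 2) in low-fraction cells, both below the lowest female WT sample at 15.7 CPM. In high-fraction cells they were at 15.2 and 24.5 CPM, against 27.9 CPM in the lowest WT sample. With *Xist* as a covariate the log2 fold changes of *Cd74* were −1.31, −0.84, −0.81 and −0.60 for low-fraction and high-fraction cells of Hoil ΔCd4 and then of Sharpin cpdm mice. Without Hoil ΔCd4 mouse 2 those of this strain were −1.32 and −0.88. For *Ctss* the values with *Xist* as a covariate were −0.69, −0.36, −0.49 and −0.30, and without Hoil ΔCd4 mouse 2 those of this strain were −0.61 and −0.35. All WT mice were female, so the covariate rests mainly on differences among the few mutant mice. It entered as log2 CPM, so the high-fraction sample of Hoil ΔCd4 mouse 2, at 64.6 CPM, counted as between the sexes. These fits therefore cannot separate sex from genotype.

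A comparison of the mutants with each other tested whether these genes differed between Hoil ΔCd4 and Sharpin cpdm mice. The strains differ in the gene lost, in the cells that lost it and in background, largely C57BL/Ka in Sharpin cpdm mice. These differences cannot be told apart here, nor can background and SHARPIN loss against WT. None of the 6 genes was called (Benjamini-Hochberg adjusted p under 0.05) by limma, edgeR or DESeq2, where limma called 9.48% of all genes in low-fraction and 6.73% in high-fraction cells. At an unadjusted p under 0.05 limma had 1 (*Cd74*) and 0 of them. *Cd74* was lower in Hoil ΔCd4 than in Sharpin cpdm low-fraction samples without overlap, at 6.23–7.12 against 8.69–9.93 CPM, with a log2 difference of −0.48 (95% interval −0.82 to −0.13, adjusted p = 0.0700 in limma). It passed 0.05 under 3 of 18 alternative analyses, and adjusted p-values over these ran from 0.0294 to 0.195. In high-fraction cells the difference was −0.19 (−0.49 to 0.11, adjusted p = 0.494). For *Ctss* the differences were −0.20 (−0.44 to 0.04, adjusted p = 0.303) and −0.06 (−0.27 to 0.15, adjusted p = 0.801). For *H2-DMa* they were −0.10 (−0.42 to 0.22, adjusted p = 0.748) and −0.16 (−0.45 to 0.12, adjusted p = 0.548). Without Hoil ΔCd4 mouse 2 the differences of *Cd74* were −0.44 and −0.19 (adjusted p of 0.195 and 0.711 in limma), and none of the 6 genes was called in that fit either.

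From the low to the high fraction *Cd74*, *Ctss* and *H2-DMa* rose in all 3 genotypes, a contrast that was not used to choose the genes. The fractions of each mouse come from 1 animal. *Ctss* rose most, from 16.4 ± 1.19 to 110.4 ± 4.34 CPM in WT, from 9.78 ± 2.03 to 83.1 ± 6.03 in Hoil ΔCd4 and from 10.99 ± 1.39 to 85.2 ± 11.1 in Sharpin cpdm mice. It was 6.21-fold to 9.74-fold higher in the high fraction in 9 of 9 mice. The log2 fold changes were 2.74 (SE 0.0844, adjusted p = 1.31e-21), 3.07 (SE 0.104, adjusted p = 3.36e-20) and 2.93 (SE 0.0885, adjusted p = 9.13e-22) for WT, Hoil ΔCd4 and Sharpin cpdm mice, by limma. Without Hoil ΔCd4 mouse 2 the change in this strain was 3.01.

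*Cd74* was 1.54-fold to 2.93-fold higher in high-fraction cells in 9 of 9 mice. Its mean rose from 17.1 ± 1.26 to 33.4 ± 6.15 CPM in WT, from 6.62 ± 0.453 to 17.9 ± 2.64 in Hoil ΔCd4 and from 9.30 ± 0.620 to 19.3 ± 4.56 in Sharpin cpdm mice. The mutant high-fraction samples thus came to the WT low-fraction level, with 15.2–24.5 against 15.7–18.1 CPM. The log2 fold changes between fractions were 0.91 (SE 0.121, adjusted p = 2.79e-07) in WT, 1.40 (SE 0.149, adjusted p = 7.35e-09) in Hoil ΔCd4 and 1.11 (SE 0.127, adjusted p = 1.88e-08) in Sharpin cpdm mice. In Hoil ΔCd4 mice it was 1.36 without mouse 2 (adjusted p = 2.78e-06 in limma).

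*H2-DMa* was 1.32-fold to 2.18-fold higher in the high fraction in 9 of 9 mice. Its log2 fold changes were 0.77 (SE 0.116, adjusted p = 1.43e-06) in WT, 0.62 (SE 0.142, adjusted p = 0.00059) in Hoil ΔCd4 and 0.68 (SE 0.121, adjusted p = 1.89e-05) in Sharpin cpdm mice. Without mouse 2 that of Hoil ΔCd4 mice was 0.51 (adjusted p = 0.0184 in limma). *H2-DMa* overlaps *Brd2* in the annotation, and the strand setting of the counting was not given in the sources used here. *Brd2*, a bromodomain gene read at 637.9–785.7 CPM, had log2 fold changes from −0.15 to −0.11 between the fractions. What reads in the shared stretch add to the *H2-DMa* counts was not tested.

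**Figure D4:**
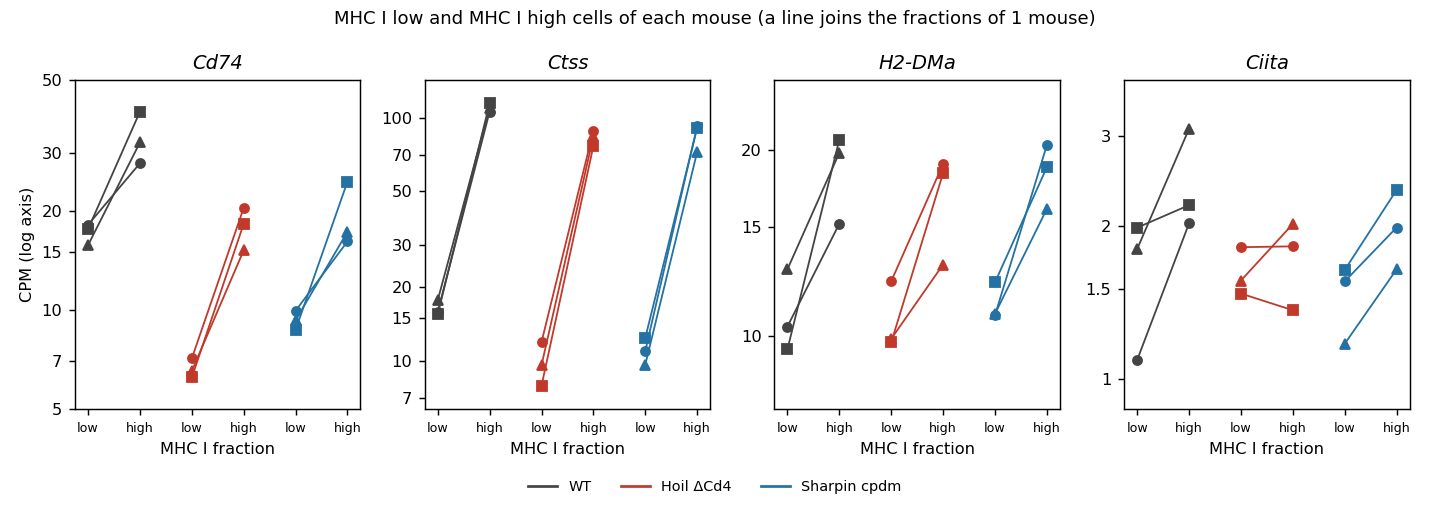
CPM (log axis) of *Cd74*, *Ctss*, *H2-DMa* and *Ciita* in the low-fraction and high-fraction cells of each mouse, a line joining both fractions of a mouse. Every line rises for *Cd74*, *Ctss* and *H2-DMa*, and 7 of 9 rise for *Ciita*, with WT highest for *Cd74* at 27.9–40.03 CPM in the high fraction.

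*Ciita* was read 14–45 times per sample. In WT mice it was at 1.09, 1.98 and 1.80 CPM in low-fraction and at 2.02, 2.20 and 3.10 CPM in high-fraction cells, with no overlap. It rose in WT (log2 fold change 0.75, SE 0.227, adjusted p = 0.00612), but the call ended without WT mouse 1 (0.45, adjusted p = 0.196), without WT mouse 3 (0.50, adjusted p = 0.215) and in edgeR and DESeq2 (adjusted p of 0.0802 and 0.133). Over 18 alternatives the adjusted p ranged from 0.00477 to 0.215. In Hoil ΔCd4 mice it went from 1.82, 1.47 and 1.56 to 1.82, 1.36 and 2.02 CPM, with a log2 fold change of 0.07 (−0.50 to 0.64, adjusted p = 0.862), or 0.18 without mouse 2 (adjusted p = 0.722). In Sharpin cpdm mice it was at 1.55, 1.64 and 1.17 CPM in low-fraction and at 1.98, 2.35 and 1.64 CPM in high-fraction cells (log2 fold change 0.44, −0.04 to 0.93, adjusted p = 0.117). The change in Hoil ΔCd4 mice did not differ from that in WT past the threshold (difference −0.68, −1.41 to 0.05, adjusted p = 0.518). *Ciita* overlaps *Dexi* in the annotation.

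The class II chains did not follow *Cd74* between the fractions. *H2-Eb1*, a β chain, had 16, 14 and 14 reads in the low-fraction samples of WT mice 1 to 3 and 6, 5 and 4 reads in their high-fraction samples. It fell in WT by limma (log2 fold change −1.44, SE 0.381, adjusted p = 0.00199), a call that ended without WT mouse 3 (−1.15, adjusted p = 0.0975) and that lay between 0.00106 and that value over 18 alternatives. In Hoil ΔCd4 mice it had 4, 2 and 12 reads in low-fraction and 6, 6 and 7 in high-fraction samples (log2 fold change 0.42, −0.54 to 1.37, adjusted p = 0.496, and 0.145 without mouse 2). In Sharpin cpdm mice it had 20, 5 and 9 and then 6, 10 and 5 reads (−0.51, −1.33 to 0.30, adjusted p = 0.286). The difference between the change in Hoil ΔCd4 and that in WT mice was 1.86 (0.62 to 3.09), and its adjusted p was 0.212 (1.59 and 0.604 without Hoil ΔCd4 mouse 2). *H2-Eb1* reached 0.5 CPM in 8 of 18 samples, among them the 3 WT low-fraction samples.

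*H2-Ab1*, the β chain that pairs with the *H2-Aa* product, had 4–22 reads per sample and was called in no comparison. Its log2 fold changes between the fractions were −0.24 (−0.97 to 0.49), −0.27 (−1.16 to 0.63) and 0.14 (−0.62 to 0.91) in WT, Hoil ΔCd4 and Sharpin cpdm mice, intervals that leave room for sizeable changes in either direction. The estimate in Hoil ΔCd4 mice was −0.93 without mouse 2 (adjusted p = 0.167). *H2-Aa* (34282744–34287823) had 0–9 reads per sample, and 0 in 2 samples. Its reads in low-fraction samples of mice 1 to 3 were 3, 7 and 4 for WT, 0, 1 and 6 for Hoil ΔCd4 and 7, 9 and 1 for Sharpin cpdm. In high-fraction samples they were 3, 6 and 3, then 1, 1 and 0, then 4, 7 and 3. It was not tested, and its few reads give no usable estimate of a difference. Within a strain the chains did not keep 1 ratio. Sharpin cpdm mouse 2 held 9 reads of *H2-Aa* to 4 of *H2-Ab1* in its low fraction, and mouse 1 held 7 to 16.

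Of the 6 genes tested, 5 were called between the fractions in WT, where 54.4% of all genes were, 3 in Hoil ΔCd4 mice (45.3%) and 3 in Sharpin cpdm mice (54.6%). In the mutants that share was close to the one over all genes. The change between fractions in the mutants was not called different from that in WT for any of the 6 genes by limma, edgeR or DESeq2, where limma called 0.398% of all genes for Hoil ΔCd4 and 3.13% for Sharpin cpdm mice. At an unadjusted p under 0.05 limma had 3 of the 6 (*Cd74*, *Ctss* and *H2-Eb1*) for Hoil ΔCd4 and 0 for Sharpin cpdm mice. For *Cd74* the difference in change was 0.49 (0.09 to 0.88, adjusted p = 0.36) for Hoil ΔCd4 and 0.20 (−0.16 to 0.56, adjusted p = 0.599) for Sharpin cpdm mice. For *Ctss* it was 0.33 (0.06 to 0.61, adjusted p = 0.368) and 0.19 (−0.06 to 0.44, adjusted p = 0.434). Without mouse 2 those of Hoil ΔCd4 mice were 0.45 (adjusted p = 0.698) and 0.27 (adjusted p = 0.703). All 4 estimates were above 0, and they share the WT samples.

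The other genes of class II presentation gave no common direction. Of all 12798 genes tested, limma called 0.985% in Hoil ΔCd4 low-fraction, 6.65% in Hoil ΔCd4 high-fraction, 12.2% in Sharpin cpdm low-fraction and 8.62% in Sharpin cpdm high-fraction cells against WT. Of 16 such genes 13 were tested, and 0 were called in Hoil ΔCd4 against WT low-fraction cells by limma, edgeR or DESeq2 (1, *Cd83*, at an unadjusted p under 0.05 in limma). The 13 genes had median log2 fold changes of −0.04, 0.04, 0.13 and 0.02 for Hoil ΔCd4 low and high and Sharpin cpdm low and high fractions, against −0.0014, −0.00027, 0.0084 and 0.003 over all genes. In Hoil ΔCd4 high-fraction cells only *Cd83*, a surface protein that slows the removal of class II, was called, as lower (0.909–1.06 against 3.07–4.83 CPM in WT, adjusted p = 0.00291). *Cd83* was lower in Sharpin cpdm low-fraction cells too, with 0–1 reads against 4–6 in WT samples (adjusted p = 0.00152). All of these samples lay below the 0.5 CPM of the filter. In the same comparison the lysosomal proteases *Ctsb* (log2 fold change 0.23, adjusted p = 0.0141), *Ctsd* (0.22, adjusted p = 0.0129) and *Ctsz* (0.35, adjusted p = 0.0016) were higher than in WT. So was *H2-Oa* (0.37, adjusted p = 0.0421), a chain of H2-DO, which restrains H2-DM. These proteases therefore differed from WT in the direction opposite to *Ctss* in Sharpin cpdm low-fraction cells. None of the 13 was called in Sharpin cpdm high-fraction cells by limma (2 at an unadjusted p under 0.05) or DESeq2, and 1 was by edgeR.

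Between the fractions limma called 7 of the 13 genes for WT, 6 for Hoil ΔCd4 and 10 for Sharpin cpdm mice, where 54.4%, 45.3% and 54.6% of all genes were called, with medians of −0.02, 0.11 and −0.19 against −0.0042, −0.003 and 0.00099 over all genes. *Ifi30*, a thiol reductase that opens antigens for cutting, rose in all 3 genotypes (log2 fold changes 0.76, 1.03 and 0.90 with adjusted p of 9.94e-07, 3.03e-07 and 1.27e-07 in WT, Hoil ΔCd4 and Sharpin cpdm mice). *Cd83*, also among the calls, went from 0.313–0.384 to 3.07–4.83 CPM in WT. Its low-fraction samples all lay below 0.5 CPM, so it passed the filter only through high-fraction samples. That rise is therefore given without a test. *Ctsd* rose in all 3 genotypes (0.34, 0.33 and 0.17). *H2-Ob*, the β chain of H2-DO, fell in all 3 (−1.36, −1.28 and −1.31, adjusted p of 5.88e-11, 9.93e-09 and 2.7e-10). *Ctsl*, the protease that trims the invariant chain in thymic epithelium, fell also (−0.75, −0.55 and −0.83), whereas *Ctss* rose. *H2-DMb1* and *H2-DMb2*, the partner chains of *H2-DMa*, had log2 fold changes of 0.19–0.35 and 0.25–0.60 and were called in none of the genotypes.

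**Figure D5:**
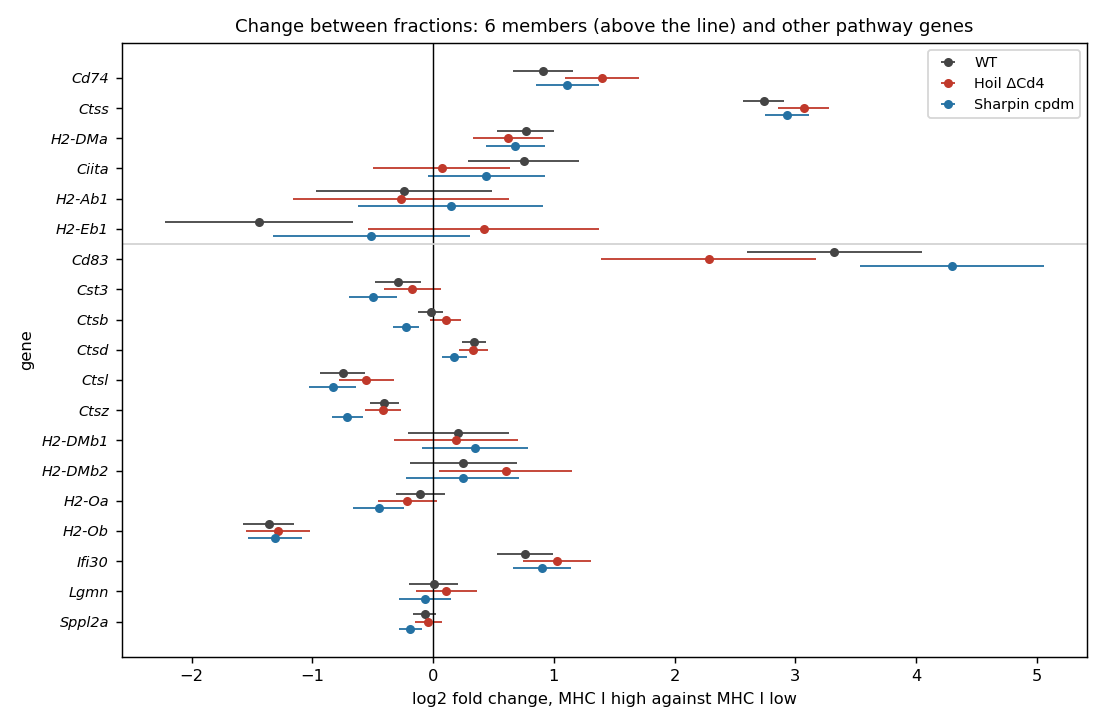
Log2 fold change between the fractions (high against low) in the 3 genotypes for the 6 tested genes, above the grey line, and 13 other genes of class II presentation, with limma estimates and 95% intervals. *Ctss* lies at 2.74–3.07 and *Cd74* at 0.91–1.40 in all genotypes, while *H2-Ob* lies at −1.36 to −1.28.

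All 10 listed genes for factors that bind class II promoters (*Rfx5*, *Rfxap*, *Rfxank*, the *Nfy* genes and cofactors) were tested, and 1 was called in the 4 comparisons with WT, *Creb1* in Sharpin cpdm low-fraction cells (log2 fold change −0.18, adjusted p = 0.0208), while 0.985% to 12.2% of all genes were called in these comparisons. The 4 medians of the list were 0.00083, 0.02, −0.07 and −0.03 for Hoil ΔCd4 low and high and Sharpin cpdm low and high fractions. *Rfx5*, which binds the X box, was at 45.7–60.8 CPM and *Nfya*, which binds the Y box, at 100.8–154.6 CPM over all samples, well above *Ciita*. Between the fractions 4, 4 and 5 of the 10 were called in WT, Hoil ΔCd4 and Sharpin cpdm mice, against 54.4%, 45.3% and 54.6% of all genes. *Nfya* fell in each (−0.29, −0.22 and −0.23), and *Kat2b*, an acetyltransferase, rose in each (0.36, 0.20 and 0.40).

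A list of inducers of *Ciita* held genes of interferon-γ signalling and further transcription factors, such as *Irf4* and *Irf8*. In it the transcription factor *Irf1* was at 82.5–279.3 CPM. Of 9 tested genes of this list 2, 3, 2 and 1 were called in Hoil ΔCd4 low-fraction, Hoil ΔCd4 high-fraction, Sharpin cpdm low-fraction and Sharpin cpdm high-fraction cells against WT, where 0.985%, 6.65%, 12.2% and 8.62% of all genes were. The first counts were 1 and 2 without Hoil ΔCd4 mouse 2. The medians of the list were −0.19, −0.11, −0.15 and −0.0025. *Irf1* was lower in both fractions of Hoil ΔCd4 mice (log2 fold changes −0.42 and −0.35, adjusted p = 0.000786 and 0.000849) and not called in those of Sharpin cpdm mice (−0.15 and −0.01). It was lower in Hoil ΔCd4 than in Sharpin cpdm mice in both fractions (−0.27 and −0.34, adjusted p = 0.0203 and 0.000979), but without Hoil ΔCd4 mouse 2 the call in the low fraction ended (−0.25, adjusted p = 0.0683). *Ifngr2*, a chain of the interferon-γ receptor, was lower in both fractions of Sharpin cpdm mice (−0.31 and −0.34, adjusted p = 0.000947 and 0.000104). In Hoil ΔCd4 high-fraction cells 2 of the calls were lower and 1 was higher. The higher one was *Ifngr1*, the other chain of this receptor (0.296, adjusted p = 0.00656, and 0.0424 without mouse 2). *Irf4* was lower in low-fraction cells of both mutants (−0.38 and −0.32, adjusted p = 0.0277 and 0.00821), the first of which ended without Hoil ΔCd4 mouse 2 (adjusted p = 0.0579). Between the fractions *Irf1*, *Irf4*, *Irf8*, *Ifngr2* and *Jak1* rose in all 3 genotypes, with *Irf1* at 1.14, 1.21 and 1.29 on the log2 scale.

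Of 5 tested neighbours of the class II genes on chromosome 17, 5, 3 and 4 were called between the fractions in WT, Hoil ΔCd4 and Sharpin cpdm mice, against 54.4%, 45.3% and 54.6% of all genes. *Psmb9*, a subunit of the immunoproteasome, rose by 1.39, 1.51 and 1.39 and *Tap1*, a peptide transporter, by 1.17, 1.18 and 1.05 log2 units in WT, Hoil ΔCd4 and Sharpin cpdm mice, whereas *H2-Ab1* in the same region was not called. *Psmb8*, another subunit, rose by 0.40, 0.37 and 0.28. *Tap2*, the partner of *Tap1*, rose in WT (0.17, adjusted p = 0.000477 in limma) and had 0.09 (adjusted p = 0.125) in Hoil ΔCd4 and 0.00098 (adjusted p = 0.986) in Sharpin cpdm mice. Of 4 tested ligands and partner receptors of CD74, *Cxcr4* fell in all genotypes (−1.02, −0.34 and −0.64), and its change in Hoil ΔCd4 mice differed from that in WT (0.69, adjusted p = 0.00805), a call that ended without mouse 2 (0.66, adjusted p = 0.10). *Mif*, a ligand of CD74, was at 26.3–37.6 CPM and was called in none of the comparisons with WT.

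The sorted cells had the markers of thymocytes. The 11 thymocyte genes summed to 5102–8436 CPM, with *Cd3e* at 378.0–543.8 and *Cd4* at 674.5–1030 CPM. Of the markers of other cells that carry class II, some had few reads and others more than the class II chains. Of 10 B-cell genes *Pax5* had at most 1 read in any sample, and *Ms4a1* and *Cd22* had 0–6 each. *Cd79a* was at 0.581–2.28 CPM. Per length *Cd79b* was at 1.44–3.91 RPKM, above the class II chains and below *Cd74* (4.40–28.3 RPKM). *Blk* had 11–17 reads in Hoil ΔCd4, 8–14 in Sharpin cpdm and 1–8 in WT high-fraction samples and was called higher in both mutants there (adjusted p of 0.00592 and 0.0180 in limma, the first 0.0770 without Hoil ΔCd4 mouse 2). The summed B-cell level of 81.3–178.5 CPM was mostly *Ighm* (75.7–171.7 CPM). In the low fraction that sum was 84.7–100.4 CPM for WT, 98.6–107.5 CPM for Hoil ΔCd4 and 81.3–95.2 CPM for Sharpin cpdm mice. In the high fraction it was 146.7–164.8, 146.7–174.4 and 160.0–178.5 CPM. The sum was thus higher in the high than in the low fraction of each genotype, and within a fraction both mutants overlapped with WT.

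Of 14 dendritic and myeloid genes *Clec9a*, *Siglech* and *Cd209a* had at most 3 reads in any sample, *Itgax* 0–5 and *Zbtb46* 0–5. *Lyz2* had 7–11 reads in Sharpin cpdm and 0 in WT high-fraction samples and was called higher (adjusted p = 0.00811 in limma), while in low-fraction samples it had 0–17 and 4–7 reads. In the low fraction their sum was 4.22–5.70 CPM for WT, 4.67–6.58 CPM for Hoil ΔCd4 and 3.01–6.56 CPM for Sharpin cpdm mice. It was 7.47–8.83, 7.27–10.7 and 8.01–11.3 CPM in the high fraction, where *Itgam*, the gene of the gated Mac-1, took 1.92–8.13 CPM over all samples. Of 10 genes of thymic epithelial cells, *Foxn1*, *Krt5* and *Krt8* had at most 3 reads, and the sum was 11.5–21.3 CPM. Within it *Epcam* was at 2.71–5.62 RPKM and *Ccl25*, a chemokine gene, at 2.44–4.95 RPKM, above the class II chains in each sample. It was 13.1–14.8, 11.7–16.6 and 11.5–14.1 CPM in low-fraction and 15.4–19.0, 18.8–21.3 and 14.7–17.4 CPM in high-fraction samples, with WT, Hoil ΔCd4 and Sharpin cpdm in that order. *Prss16*, a protease gene of cortical epithelium, was at 0.156–3.56 CPM and was called higher in the high fraction in all genotypes. Other genes of the list did not share this. *Cldn4* was called lower in the high fraction of WT mice (means of 1.29 and 0.489 CPM in low and high). *Epcam* was called higher only in Hoil ΔCd4 mice, a call that ended without mouse 2 (adjusted p = 0.295 in limma). *Psmb11*, not tested, had 7, 10 and 6 summed reads in low-fraction and 2, 4 and 3 in high-fraction samples, in the same order. What such cells add to the *Cd74*, *Ctss* and class II chain reads was not tested.

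Genes whose pattern was most like that of *Cd74* were named by Pearson's r of log2 CPM over the 18 samples, a description in which group differences and libraries are shared. The highest were *Cd82*, a tetraspanin (r = 0.972), *Tnfrsf4*, the receptor OX40 (0.955), *Bhlhe40*, a transcription factor (0.952), *Rcan3* (0.919), *Arhgef3* (0.913), *Cyria* (0.906), *Tnfrsf18*, the receptor GITR (0.905), and *Plagl1* (0.904). *Cd82* was at 143.8 and 228.4 CPM in WT low-fraction and high cells, at 86.8 and 149.6 in Hoil ΔCd4 and at 105.6 and 169.4 in Sharpin cpdm mice, means that rank the groups within each fraction as *Cd74* does. *Tnfrsf4* gave 33.5 and 55.0, 20.6 and 36.0, and 27.9 and 42.7 CPM. Among the genes followed here r with *Cd74* was 0.840 for *Ctss*, 0.730 for *H2-DMa*, 0.558 for *Ciita*, −0.03 for *H2-Ab1* and −0.07 for *H2-Eb1*. Within groups, that is over deviations from the 6 group means, the highest r was that of *Ddx20* (0.815), *Ggta1* (0.788), *Sesn2* (0.766), *Ssbp2* (0.764), *Isg20l2* (0.753), *Fam172a* (0.752), *Syap1* (0.751) and *Dscam* (0.740). *Cd82* had 0.545 there and *Ctss* 0.232. These are the highest of 12798 genes over 18 samples. How high r runs by chance among so many genes was not tested, so the ranking shows no link to *Cd74*. *Dscam* had a mean of 0 CPM in the low fraction of every genotype, so its r within groups rests on high-fraction samples. Without Hoil ΔCd4 mouse 2, over 16 samples, the r of *Cd82* was 0.968, of *Tnfrsf4* 0.965 and of *Ctss* 0.821, and within groups *Ddx20* had 0.872 and *Tnfrsf4* 0.815.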

How the data were processed

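The authors sequenced 75-base single-end reads from sorted thymocytes, aligned them to mm10 (Rsubread, subread) and assigned them to genes with featureCounts, using its own RefSeq-based annotation. The deposited values are raw counts per gene and sample, not normalized and not pooled, beside the counted length in bases. Versions and the settings for strand and multiply mapped reads were not given in the sources used here. Symbols and coordinates came from RefSeq (GRCm38.p6), which matched 25275 of 27179 gene IDs.

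Following the study's methods, genes had to reach 0.5 CPM in 3 or more samples to be kept, without chromosome Y genes, *Xist* (used only to tell the sex), predicted genes and genes without a symbol, which left 12798. TMM factors (0.987–1.01) scaled the libraries, and CPM and RPKM are on that scale. Log2 CPM with a prior count of 1 was fitted in 1 limma model over the 6 groups, which weighted samples by quality (0.628–2.42) and took the mouse as a random block (correlation 0.224). Both fractions of a mouse come from 1 animal, and across genes their departures from the group means had r = 0.0703–0.256 in the 9 mice. Empirical Bayes moderation was robust and followed the abundance trend. Adjusted p-values are over all genes tested. The levels are mean ± SD of 3 mice, and fold changes are on the log2 (CPM + prior) scale. The tests were tried on simulated counts. Some genes of the lists are not reported here by name. The genes and lists were chosen with earlier results of these data known. The rule for other named genes took the 8 with the highest r to *Cd74* over samples, the 8 over deviations, called genes of the lists and up to 3 others of a list. limma 3.58.1 with statmod 1.5.0 ran in R 4.3.3, and the alternatives used edgeR 4.0.16 and DESeq2 1.42.0.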

Additional observations from a re-analysis of the deposited data

How the results depend on the processing

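The 18 alternatives were 2 other tools (edgeR with its quasi-likelihood test, and DESeq2), library sizes without TMM, all genes without the filter, equal sample weights, no replicate block, a fixed block of mouse numbers, a larger prior count (3), *Xist* as covariate, and the fits without 1 of the 9 mice. No result changed direction while called. *Cd74* stayed lower in both mutants and higher in MHC I high cells under all 18. Between the mutants 0 of the 6 genes were called in the MHC I low fraction, but 1 (*Cd74*) was without sample quality weights and with the mouse number as a fixed replicate block (adjusted p = 0.0464), and 0 to 1 when a mouse was left out (1 without Sharpin cpdm mouse 2). The block changed no other count by more than 1.5 times. Between the fractions of WT mice 5 genes were called, 3 to 5 when a mouse was left out, with 3 without WT mouse 3, where *Ciita* and *H2-Eb1* were lost. *H2-Eb1* was called in Sharpin cpdm mice only without mouse 2 (adjusted p = 0.0389). Against WT the log2 fold change of *Ctss* in MHC I high cells was −0.46 to −0.35 in Hoil ΔCd4 and −0.44 to −0.26 in Sharpin cpdm mice over the 18. For the other class II presentation genes, the 1 call in Hoil ΔCd4 MHC I high cells became 0 to 1 (0 without WT mouse 3), and the 5 in Sharpin cpdm MHC I low cells became 3 to 5 (3 without WT mouse 3 or any of the Sharpin cpdm mice). The 0 in Sharpin cpdm MHC I high cells became 1 with edgeR and with a prior count of 3, and 0 to 1 when a mouse was left out (1 without Sharpin cpdm mouse 2). The causes were not tested. Depth limits *Ciita*, *H2-Aa*, *H2-Ab1* and *H2-Eb1*, which had at most 45 reads in any sample.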
